A study of Homo sapiens with 6 samples.

Results

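H4K12la, the lactylated form of lysine 12 of histone H4, was mapped by CUT&Tag in HepG2, a human hepatocellular carcinoma line. The members described here are all peaks on all sequences in the 2 peak lists labelled H4K12la, 5652 from replicate 1 and 7773 from replicate 2. They are 13425 of the 27419 peaks in the 6 libraries of the series, which also covered the glycolytic enzyme ENO1 and the histone deacetylase HDAC1 with 2 replicates each. All 6 libraries came from HepG2 cells with no genetic change or treatment named in the labels. Whether the 2 replicates were grown and stained apart is not in the labels, and their spread may be technical only. The read depth of each library is unknown, and no control library was analysed here. A region without a peak is therefore a region that was not called, not a region shown to lack the mark.

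Lactylation is the attachment of a lactyl group, derived from lactate, to a lysine side chain. On histone tails it neutralises the charge of the lysine, as acetylation does, and it has been studied at the promoters of active genes in macrophages and tumour cells. Enzymes known to transfer or remove acyl groups include the acetyltransferase EP300, class I histone deacetylases and sirtuins, while lactate itself is the end product of glycolysis. In CUT&Tag, an antibody tethers a transposase to the mark, and the DNA cut out around it is sequenced.

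Promoters of the strongest marked genes are shown first, because the report returns to their letters. A protein-coding gene is called marked here when each of the 2 lists held a peak within 1 kb of either end of the gene. The authors' fold enrichment of a peak, a ratio of signal to local background, is used only to order and describe peaks. Genes whose own 300 bases at the start were overlapped by a peak in both lists were ordered by the lower of their 2 folds. In 16 of the first 30, the 300 bases held at least 1 of 4 motifs searched on both strands, namely CCGGAAG (an ETS-type site), GCATGCGC (an NRF1-type site), AAGATGGC (a YY1-type site) and TCGCGA (a palindrome of the ZBTB33 type). At least 1 of the 4 was in 704 of the 1767 promoters of marked genes (39.8%) and in 3662 of all 15843 promoters (23.1%). The 4 are part of 11 motifs searched, and each by itself was in a larger share of marked than of all promoters. The pooled shares therefore add no separate support. Each sequence runs 5′ to 3′ from 250 bases before the start to 50 after it on the gene's strand, from RefSeq on GRCh38.p14, with motif matches in capitals. IFT70A is shown as the strongest of them and as a window with no match, and the others show each motif. IFT70A lies at chr2:177618693-177618992 (minus strand), UCHL3 at chr13:75549252-75549551 (plus), SEC23B at chr20:18507298-18507597 (plus) and GIGYF2 at chr2:232697081-232697380 (plus). MINDY3 lies at chr10:15860458-15860757 (minus), RAMAC at chr15:82985960-82986259 (plus), CCDC174 at chr3:14651512-14651811 (plus) and MMS22L at chr6:97283167-97283466 (minus).
IFT70A: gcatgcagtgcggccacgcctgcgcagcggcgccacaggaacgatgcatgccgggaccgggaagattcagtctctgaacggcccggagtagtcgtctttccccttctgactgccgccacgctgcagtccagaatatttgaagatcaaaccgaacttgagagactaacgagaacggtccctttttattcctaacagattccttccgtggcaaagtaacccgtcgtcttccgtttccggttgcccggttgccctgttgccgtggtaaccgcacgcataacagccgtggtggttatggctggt
UCHL3: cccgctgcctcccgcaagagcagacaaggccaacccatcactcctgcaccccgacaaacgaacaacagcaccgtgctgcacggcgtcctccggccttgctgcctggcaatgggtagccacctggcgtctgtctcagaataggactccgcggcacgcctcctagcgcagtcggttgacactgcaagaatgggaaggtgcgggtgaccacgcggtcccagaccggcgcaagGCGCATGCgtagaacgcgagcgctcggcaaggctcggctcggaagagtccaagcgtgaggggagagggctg
SEC23B: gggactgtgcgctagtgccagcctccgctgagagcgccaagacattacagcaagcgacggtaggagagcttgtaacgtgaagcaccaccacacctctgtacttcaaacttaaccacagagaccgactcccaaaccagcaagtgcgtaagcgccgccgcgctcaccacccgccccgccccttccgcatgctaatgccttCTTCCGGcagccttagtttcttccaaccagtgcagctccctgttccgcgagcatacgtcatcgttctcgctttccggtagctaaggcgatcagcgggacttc
GIGYF2: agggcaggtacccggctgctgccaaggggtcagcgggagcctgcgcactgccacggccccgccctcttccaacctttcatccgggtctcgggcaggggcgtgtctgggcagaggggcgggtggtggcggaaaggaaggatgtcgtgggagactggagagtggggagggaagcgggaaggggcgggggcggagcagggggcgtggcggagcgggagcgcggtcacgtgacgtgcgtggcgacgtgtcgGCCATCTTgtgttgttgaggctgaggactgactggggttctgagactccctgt
MINDY3: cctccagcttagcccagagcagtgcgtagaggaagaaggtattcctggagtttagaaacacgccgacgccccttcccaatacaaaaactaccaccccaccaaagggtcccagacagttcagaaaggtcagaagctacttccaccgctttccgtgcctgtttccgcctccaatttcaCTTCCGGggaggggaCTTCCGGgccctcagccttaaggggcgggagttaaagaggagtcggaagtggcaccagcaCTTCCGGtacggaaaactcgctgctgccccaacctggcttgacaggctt
RAMAC: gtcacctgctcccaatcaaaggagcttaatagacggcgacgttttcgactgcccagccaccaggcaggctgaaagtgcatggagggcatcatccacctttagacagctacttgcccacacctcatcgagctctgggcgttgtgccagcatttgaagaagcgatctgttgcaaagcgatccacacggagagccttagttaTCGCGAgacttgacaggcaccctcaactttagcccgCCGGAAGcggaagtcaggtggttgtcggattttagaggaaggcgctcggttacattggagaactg
CCDC174: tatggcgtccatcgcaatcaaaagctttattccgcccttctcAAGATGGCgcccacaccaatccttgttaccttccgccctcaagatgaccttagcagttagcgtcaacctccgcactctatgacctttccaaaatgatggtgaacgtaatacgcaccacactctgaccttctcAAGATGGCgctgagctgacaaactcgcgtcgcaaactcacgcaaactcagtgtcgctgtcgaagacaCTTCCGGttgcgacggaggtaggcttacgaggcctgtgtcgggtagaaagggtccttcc
MMS22L: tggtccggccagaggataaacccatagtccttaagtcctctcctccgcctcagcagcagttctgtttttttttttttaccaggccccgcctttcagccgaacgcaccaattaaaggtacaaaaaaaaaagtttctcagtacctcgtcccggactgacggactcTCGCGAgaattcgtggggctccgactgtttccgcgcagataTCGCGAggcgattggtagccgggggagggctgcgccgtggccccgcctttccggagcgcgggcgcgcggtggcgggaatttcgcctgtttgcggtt

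IFT70A, a subunit of the intraflagellar transport machinery that builds cilia, had a fold of 7.63 in replicate 1 and 7.28 in replicate 2. The same pair of values was 6.709 and 6.504 for UCHL3, a ubiquitin hydrolase, and 6.94 and 6.45 for SEC23B, a coat protein of COPII vesicles. For GIGYF2, a translational repressor, the fold was 6.86 and 6.32. MINDY3, a deubiquitinase, had 6.21 and 6.25, and RAMAC, a cofactor of the mRNA cap methyltransferase, had 6.10 and 6.23. The 2 replicates were close for these genes, and the widest gap among the 8 was at CCDC174, with 6.03 and 8.40. MMS22L, which acts in the repair of stalled replication forks, had 6.35 and 5.84. Over all marked genes the median fold was 3.98 in replicate 1 and 4.27 in replicate 2. In MINDY3 the ETS-type letters occurred 3 times, the first base of the matches lying at 74 and 59 bases before the start and 1 base after it. The YY1-type letters in GIGYF2 began 3 bases before the start, on the strand opposite to transcription.

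Peaks that both lists held were wider and stronger than peaks that a single list held. Of the 5652 peaks of replicate 1, 3737 were overlapped by at least 1 bp by a peak of replicate 2, a share of 66.1% (Wilson 95% interval 64.9 to 67.3). Of the 7773 peaks of replicate 2, 3736 were overlapped in replicate 1, which is 48.1% (46.9 to 49.2). These intervals and those below cover counting error only. The median width was 607 bp for shared and 450 bp for unshared peaks in replicate 1, and 664.5 and 467 bp in replicate 2. The median fold was 4.09 against 3.90 in replicate 1 and 4.32 against 3.83 in replicate 2. The quartiles of fold overlapped widely, from 3.53 to 4.93 for shared and from 3.38 to 4.52 for unshared peaks of replicate 1. The median −log10 q, the authors' peak significance, was 6.54 for shared and 4.42 for unshared peaks in replicate 1, and 7.73 and 4.79 in replicate 2.

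The share of peaks that recurred rose with their −log10 q in both lists. Among replicate 1 peaks with −log10 q from 2 to 3, 34.9% (30.01 to 40.2) were overlapped in replicate 2. From 3 to 5 the share was 49.4%, from 5 to 10 it was 74.3%, from 10 to 20 it was 88.2%, and at 20 or more it was 94.8% (92.0 to 96.6). Replicate 2 gave 14.8% (11.8 to 18.5), 27.6%, 51.6%, 83.2% and 95.1% (92.5 to 96.9) in the same bands. The 2 lists had overlapping intervals at 20 or more, and in every band below 20 the longer list of replicate 2 had the lower share.

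**Figure D1:**
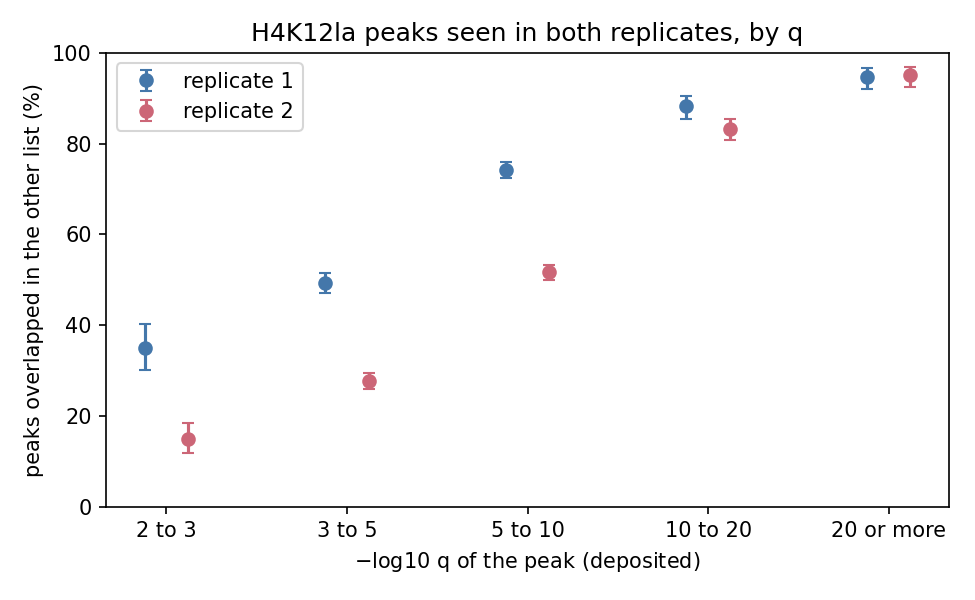
Share of H4K12la peaks overlapped by at least 1 bp in the other list (vertical axis, percent) by band of the deposited −log10 q (horizontal axis), with Wilson 95% intervals, for each replicate. In both lists the share rises at every band, from 34.9% to 94.8% in replicate 1 and from 14.8% to 95.1% in replicate 2.

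Merging overlapping peaks gave 9669 regions, of which 3717 (38.4%) held peaks of both replicates and 5952 held peaks of a single list. Several peaks within a region were rare. Of the 3717 regions, 3679 held 1 peak of each list, 37 held 3 peaks and 1 held 4. No interval was listed more than once, so each peak had a single summit. The 38 regions with more than 2 peaks had a median width of 1676 bp against 803 bp for the rest, and a median fold of 3.72 and 3.85 against 4.09 and 4.33 in replicates 1 and 2. Of these 38, 17 lay at gene ends, among them those of POLR1B and POLR1H, which encode subunits of RNA polymerase I, and of RABGGTB, a subunit of the enzyme that attaches lipids to RAB proteins. At POLR1B the region chr2:112541836-112543687 held 2 peaks in replicate 1 and 1 in replicate 2, with a fold of 5.16 and 4.998. Within the 3717 regions the 2 summits lay a median of 129 bp apart, with quartiles of 38 and 262 bp.

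Regions far from genes had the highest fold and the smallest width. On the 24 chromosomes, 1686 of 3561 regions lay at a protein-coding gene end, 850 lay inside a gene away from its ends, 434 lay outside genes within 50 kb, and 591 lay farther out. A region that reached a gene end directly accounted for 1248 of the 3561, and 438 more lay 1 to 1000 bp from an end, whereas 196 lay between 1001 and 5000 bp. The median fold at gene ends was 4.00 in replicate 1 and 4.27 in replicate 2, and inside genes it was 3.95 and 4.09. Beyond 50 kb it was 5.51 and 5.36. The median width was 867.5 bp for gene ends, 756.5 bp inside genes and 707 bp beyond 50 kb. Summits of the 2 replicates lay a median of 154.5 bp apart at gene ends and 51 bp apart beyond 50 kb. A fold over 10 in both lists was reached by 1 gene-end region, 8 regions inside genes, 15 within 50 kb outside genes and 86 beyond 50 kb.

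The location classes also differed in how they were shared with the other libraries. Of the 591 regions beyond 50 kb, 312 (52.8%) overlapped peaks in all 6 libraries of the series, compared with 51 of 850 (6.0%) inside genes and 7 of 1686 (0.415%) at gene ends. At gene ends, 812 of the 1686 regions (48.2%) overlapped no peak of any ENO1 or HDAC1 library, and 473 (28.1%) overlapped HDAC1 peaks of both replicates. The 7 gene-end regions with peaks in all 6 libraries included those of TMEM216, CCDC200 and OR2T1. TMEM216, a protein of the ciliary transition zone, had the highest fold of any marked gene, 20.7 and 21.5. Its region, chr11:61391246-61391991, ended before the gene start. OR2T1, an olfactory receptor, had 7.02 and 11.5, and its peak lay past the 3′ end of the gene. The part that a signal common to all antibodies plays at these genes was not tested. Across the regions the fold of the 2 replicates had a Spearman rho of 0.583 at the 1686 gene ends, 0.717 at the 850 regions inside genes and 0.911 at the 591 regions beyond 50 kb. These are descriptions across regions that share 2 libraries.

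Single-list peaks had a different makeup in the 2 replicates. In replicate 1, 29.1% of the unshared peaks lay at gene ends against 44.96% of the shared ones. In replicate 2 the same shares were 40.2% and 45.3%. Seen by class, 75.1% of gene-end peaks of replicate 1 recurred in replicate 2, and 57.5% of peaks inside genes did. From the side of replicate 2, 51% of gene-end peaks and 38.9% of peaks inside genes recurred. Peaks beyond 50 kb recurred at 62.4% in replicate 1 and 60.9% in replicate 2, and peaks outside the 24 chromosomes at 82.4% and 77.1%. Gene-end peaks thus recurred at a higher share than peaks inside genes in both lists, but at a lower share than peaks beyond 50 kb in replicate 2, and at a lower share than peaks outside the 24 chromosomes in both.

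A total of 2077 of 19866 protein-coding genes were marked in both lists, or 10.5%. In replicate 1 alone 13.5% of genes had a gene-end peak, in replicate 2 alone 19.5%, and with −log10 q of at least 5 in both lists 6.11%. In 2036 of the 2077 genes (98.0%) the peaks of the 2 lists overlapped each other, and in 41 they lay near the same gene without overlapping. One region could serve several genes, and 381 of the 1686 gene-end regions (22.6%) lay at the ends of more than 1 gene. Marked genes were longer than all genes, with a median of 42.1 kb (quartiles 19.5 and 88.4) against 24.5 kb (8.68 and 65.6).

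In genes marked at an end, that end was mostly the start, and a larger share of the summits near starts lay downstream than upstream. For the 15843 genes with a start in the RefSeq promoter table, 1767 were marked, or 11.2%. Of these 1767, 1725 (97.6%, 96.8 to 98.2) had peaks of both lists within 1 kb of the start and 64 (3.62%, 2.85 to 4.60) within 1 kb of the other end. Of the summits on chromosomes with tabulated starts, 2025 of 5270 (38.4%) in replicate 1 and 2969 of 7305 (40.6%) in replicate 2 lay within 1000 bp of a start. The median position of these was 87 bp downstream in replicate 1 (quartiles −135 and 280) and 65 bp downstream in replicate 2 (−142 and 254). The share lying downstream was 62.9% in replicate 1 and 61.4% in replicate 2. The 200 bp after the start held 27.5% and 28.6% of the summits within 1000 bp. With the starts of divergent gene pairs left out, the downstream share was 60.5% and 60.4%.

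**Figure D2:**
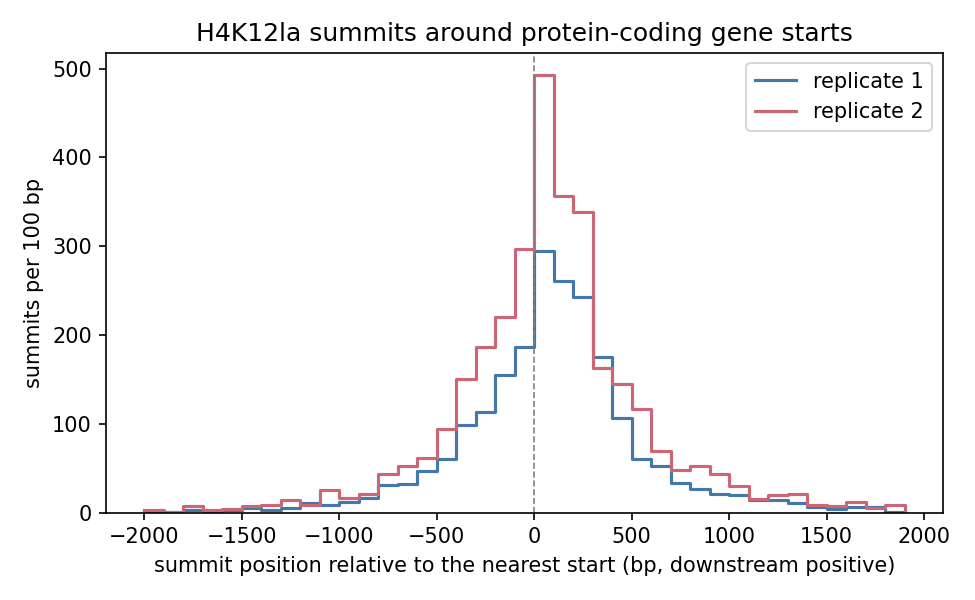
Number of H4K12la summits per 100 bp (vertical axis) by position relative to the nearest tabulated protein-coding start (horizontal axis, bp, downstream positive), for replicate 1 and replicate 2. Both profiles peak just downstream of the start, and 62.9% and 61.4% of the summits within 1000 bp lie on that side.

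A small set of genes carried regions at both ends. Among the 1551 marked genes over 10 kb long with a tabulated start, 14 (0.903%) had peaks of both lists at the start and at the other end. BBS7, a subunit of the BBSome that carries proteins into cilia, had a fold of 5.83 and 5.26 at its stronger end. The set also held SIRT5, a mitochondrial lysine deacylase (4.11 and 5.75), NUP107, a nuclear pore scaffold (4.58 and 4.73), MAT1A, the liver's methionine adenosyltransferase (3.45 and 3.46), and HNF4A. ANKAR and ORMDL1, also in the set, lie next to each other and shared a value of 5.08 and 5.33. OSGEPL1, which has an end between theirs, had the same values. An end of BBS7 lies within 1 kb of an end of CCNA2 (4.68 and 4.79). Likewise an end of NUP107 lies within 1 kb of an end of SLC35E3 (3.88 and 3.41). These neighbours were marked too, so a region at such an end need not belong to the gene named.

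A larger share of the genes that start back to back was marked than of other genes. Of 1609 genes whose start lay within 1 kb of an opposite-strand start pointing away from it, 375 were marked, or 23.3% (21.3 to 25.4). Of the other 14234 genes, 1392 were marked, or 9.78% (9.30 to 10.3). The same pair of shares was 28.5% and 12.7% in replicate 1 and 40.5% and 18.5% in replicate 2. The promoters of divergent genes also had more CpG dinucleotides, with a median of 27 per 300 bases against 21. Within promoters of 21 to 30 CpGs the shares were 27.6% (24.3 to 31.2) and 16.2% (14.98 to 17.4), and within 11 to 20 CpGs they were 30.1% (25.2 to 35.4) and 13.03% (11.8 to 14.4). Of 814 divergent pairs, 200 had at least 1 marked gene and 179 had both marked. In 175 of the 179 pairs a single region lay at an end of both genes, which the 1 kb window makes likely by definition where starts are at most 1 kb apart. The pair of starts with the strongest region was COMMD6 and UCHL3, 63 bp apart. Among the pairs ranked, it was followed by GPATCH2 and SPATA17, 254 bp apart, with a fold of 6.35 and 6.27. Then came SOX6 and C11orf58, 170 bp apart, with 6.04 and 6.96. UFSP2, which starts back to back with CFAP96 and had 6.30 and 8.01, was not in this ranking. A gene of such a pair counts as marked whichever of the neighbours the mark belongs to.

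Marked shares differed widely between chromosomes, with chromosomes 2 and 10 at the top and chromosomes 19 and X at the bottom. On chromosome 2, 287 of 1254 genes were marked, or 22.9% (20.7 to 25.3), and on chromosome 10, 149 of 733, or 20.3% (17.6 to 23.4). Chromosomes 20 (16.9%) and 14 (16.3%) followed. On chromosome 19, 15 of 1410 genes were marked, or 1.06% (0.646 to 1.75), and on chromosome X, 11 of 848, or 1.30% (0.726 to 2.31). Each replicate alone gave the same extremes. The shares on chromosome 2 were 26.5% in replicate 1 and 32.0% in replicate 2, and on chromosome 19 they were 2.77% and 5.96%. Chromosome X had 3.42% and 4.83%. DNA copy number, which differs between chromosomes in HepG2, was not measured here, and its part in these shares was not tested. The other 19 numbered chromosomes and chromosome Y lay between 4.44% and 16.9%.

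Chromosome 19 carries many C2H2 zinc finger genes, which bind DNA, but the low share was not theirs alone. Of its 258 genes named ZNF, ZFP, ZSCAN or ZKSCAN, 8 were marked (3.10%, 1.58 to 5.998), and of its 1152 other genes 7 were (0.608%, 0.295 to 1.25). On the remaining chromosomes 40 of 297 such zinc finger genes (13.5%) and 2022 of 18159 other genes (11.1%) were marked. ZNF430 had the highest lower fold on the chromosome, 5.06 and 5.22, and RABAC1, a factor that acts on RAB proteins, had 4.14 and 4.28. The median GC content of the promoters was 63% on chromosome 19 and 63.7% on chromosome 2, and the median CpG count was 21 and 23. For HDAC1, gene-end peaks in both replicates covered 8.18% of all genes, 8.94% of chromosome 19 genes, 12.9% of chromosome 2 genes and 2.00% of chromosome X genes. The difference between the 2 targets on chromosome 19 was not tested, since each had 2 libraries. The median gene on chromosome 19 was 14.5 kb long and on chromosome 2 it was 39.2 kb, and the part of gene length in these shares was not tested.

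**Figure D3:**
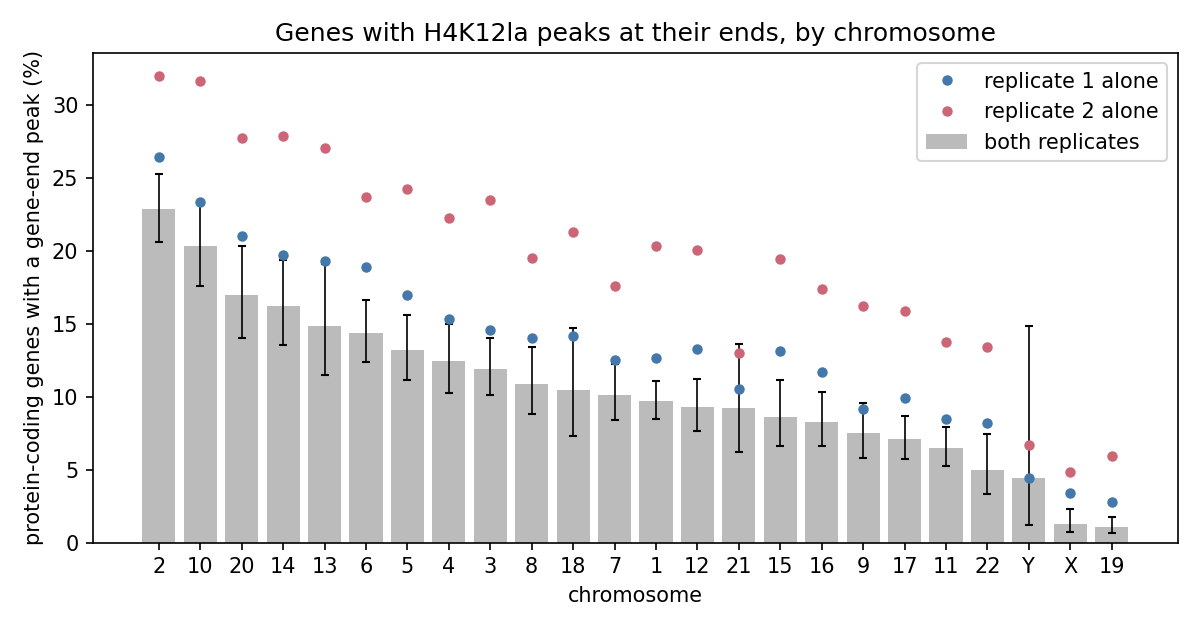
Percent of protein-coding genes with H4K12la gene-end peaks (vertical axis) on each chromosome (horizontal axis, ordered by share). Bars give genes marked in both replicates with Wilson 95% intervals and points give each replicate alone; chromosome 2 stands at 22.9% and chromosomes X and 19 at 1.30% and 1.06%.

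The share of marked genes rose and then fell with the CpG content of the promoter. It was 1.85% (1.43 to 2.40) for 3074 promoters with 0 to 5 CpGs in 300 bases, 12.3% for 11 to 15 CpGs and 18.8% (17.1 to 20.5) for 21 to 25 CpGs. At 36 or more CpGs it was 9.03% (8.001 to 10.2) of 2657 promoters. Each list alone had the same shape, with 23.2% and 34% at 21 to 25 CpGs and 13.2% and 18.9% at 36 or more. By GC content the share was 2.50% below 40%, 15.02% between 60% and 70%, and 4.38% at 80% or above. The composition was measured on the reference promoters, and the effect of base composition on the sequencing was not tested.

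Short motifs of housekeeping promoters were in a larger share of marked than of all promoters, and the TATA box was in a smaller share. The letters were searched on both strands of the 15843 promoters of 300 bases, of which 1767 belonged to marked genes. CCGGAAG, the core of ETS-type sites, was in 24.5% (22.6 to 26.6) of marked and 14.2% of all promoters. AAGATGGC, the YY1-type site seen in GIGYF2 and CCDC174, was in 7.53% (6.39 to 8.85) of marked and 3.86% of all. TCGCGA, seen in RAMAC and MMS22L, was in 8.49% (7.28 to 9.88) and 4.39%. GCATGCGC, seen in UCHL3, was in 7.41% (6.28 to 8.73) and 4.28%. The GC box GGGCGG was in 66.9% and 58.3%, and CACGTG, the E-box, in 11.8% (10.4 to 13.4) and 8.82%. TATAAA was in 4.53% (3.65 to 5.60) of marked and 9.75% of all promoters, and TGACTCA, the AP-1 site, in 2.38% (1.76 to 3.20) and 3.62%.

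For most of these motifs the gap was smaller among promoters of like CpG content. Among the 5989 promoters with 15 to 30 CpGs, CCGGAAG was in 27.1% of the marked and 21.4% of all, AAGATGGC in 9.31% and 5.84%, and TCGCGA in 9.50% and 5.79%. The GC box changed sides there, with 65.7% and 70.6%. The AP-1 site was in 2.09% and 2.12%, and TATAAA in 3.61% and 5.53%. CCAAT was in 37.8% (35.6 to 40.1) of marked and 36.4% of all promoters. CAAAGTCCA, a site of the HNF4 type, was in 5 of the 1767 marked promoters (0.283%, 0.121 to 0.661) and 0.303% of all. These matches are letters in a window, with no evidence here of a bound factor, and TCGCGA, GCATGCGC and CACGTG may share bases with one another or with other sites.

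**Figure D4:**
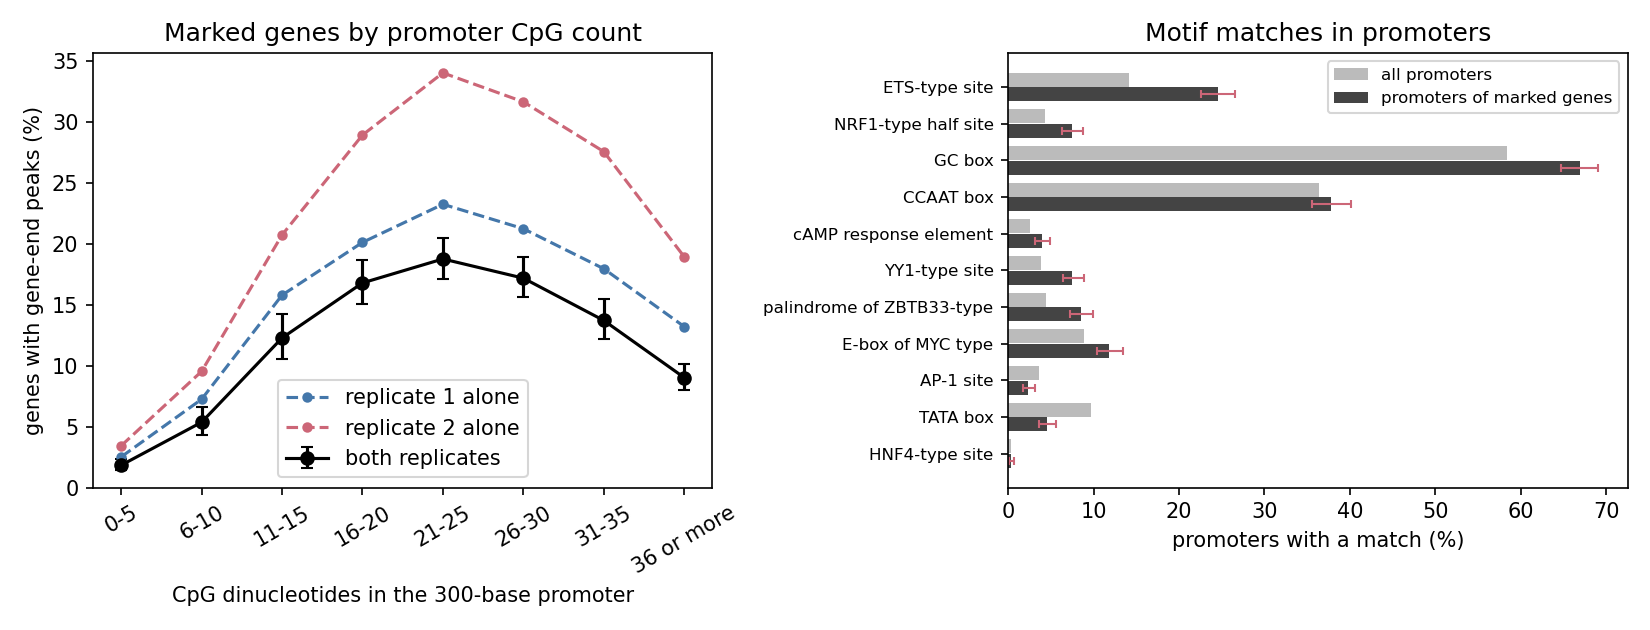
Left, percent of genes with H4K12la gene-end peaks (vertical axis) by CpG count of the 300-base promoter (horizontal axis), in both replicates with Wilson 95% intervals and in each alone. Right, percent of promoters with a motif match (horizontal axis) among all 15843 promoters and among the 1767 of marked genes, with Wilson 95% intervals on the latter; ETS-type letters stand at 24.5% in marked and 14.2% in all promoters.

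By function, the marked shares of gene lists ran from 0 to 36%. Of 48 gene lists, 33 had a larger share of marked members than the 10.5% of all protein-coding genes and 15 a smaller one. The lists overlap in part and their members can share regions, so the Wilson intervals only describe the counts. For scale, the CpG band with the highest marked share had 18.8%. Nothing here shows that a list differs from other genes of like promoters.

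Of the 48 lists, that of vesicle coats and tethers had the highest share. Of 75 genes for COPI, COPII and TRAPP coats, tethers and related SEC proteins, 27 were marked, or 36% (26.1 to 47.3). SEC23B was followed by EXOC4, an exocyst subunit (5.28 and 6.79), SEC62, a factor of protein entry into the endoplasmic reticulum (4.95 and 6.24), and COG5, a Golgi tether (4.85 and 4.80). Both isoforms of the small GTPase that starts COPII coats were marked, SAR1A at 2.90 and 4.65 and SAR1B at 3.51 and 3.52. Among sorting nexins, ESCRT and retromer genes 17 of 78 were marked (21.8%), led by TSG101 (5.49 and 5.04), and among RAB GTPases 11 of 63 (17.5%).

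Cilium and centrosome genes came next. Of 63 genes for intraflagellar transport, the BBSome and the transition zone, 20 were marked, or 31.7% (21.6 to 44.0), with a median lower fold of 4.80 against 3.84 over all marked genes. Besides TMEM216 and IFT70A they included TBC1D32, a regulator of ciliary signalling (7.18 and 7.47), and ARL6, the GTPase that recruits the BBSome (6.16 and 6.68). Of 65 centrosome and centriole genes 21 were marked, or 32.3% (22.2 to 44.4), among them CEP290 (4.92 and 5.27) and PLK4, the kinase that starts centriole duplication (4.70 and 4.83). HepG2 cells divide, and the centriole serves both the spindle and the cilium base.

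Lists of RNA handling and translation had shares between 8.24% and 31.7%. Of 70 tRNA processing and modification genes 22 were marked (31.4%, 21.8 to 43.0), led by OSGEPL1, which makes the t6A modification in mitochondria (5.08 and 5.33), and TSEN15, a subunit of the tRNA splicing endonuclease (5.04 and 5.86). Of 41 RNA decay genes 13 were marked (31.7%, 19.6 to 47.0), including DCP1A of the decapping complex (5.29 and 4.86) and XRN2, the exonuclease of transcription termination (4.30 and 5.19). Integrator and polyadenylation factors had 7 of 32 (21.9%), and spliceosome and splicing factors 14 of 77 (18.2%). Of 38 aminoacyl-tRNA synthetase genes 12 were marked (31.6%, 19.1 to 47.5), led by GARS1, which charges glycine tRNA (5.37 and 5.70). By contrast 7 of 85 cytosolic ribosomal protein genes were marked (8.24%, 4.05 to 16.04), among them RPS6 (4.00 and 3.62), while 21 of 76 mitochondrial ribosomal protein genes were (27.6%, 18.8 to 38.6), led by MRPL3 (4.77 and 5.64). In replicate 1 alone the cytosolic genes had 16.5% and in replicate 2 alone 25.9%, above the 13.5% and 19.5% of all genes. The mitochondrial ones had 32.9% and 43.4% there. The difference between the 2 kinds of ribosome was not tested.

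Lists of mitochondrial metabolism and of glycolysis are given side by side, and their difference was not tested. In the citric acid cycle list 6 of 22 genes were marked (27.3%, 13.2 to 48.1). These included 3 components of the pyruvate dehydrogenase complex, PDHX (4.55 and 4.95), DLAT (5.66 and 4.35) and DLD (4.17 and 6.18). Complex I had 12 of 45 (26.7%, 15.96 to 41.0), led by NDUFB1 (4.69 and 5.74), and complexes II to V had 10 of 40 (25%, 14.2 to 40.2), led by UQCRB of complex III (6.06 and 4.88). Mitochondrial import and chaperones had 4 of 33 (12.1%). Of 31 genes of glycolysis and lactate handling 3 were marked (9.68%, 3.35 to 24.9). They were PFKM, the muscle form of phosphofructokinase (4.66 and 4.05), GPI, glucose-6-phosphate isomerase (3.03 and 3.35), and SLC16A3, a lactate exporter (2.95 and 2.60). LDHB had no gene-end peak in either list, and LDHA had a peak of 3.02 in replicate 2 alone. ENO1, the enolase named in the title of the series, had none in either list.

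Counted in both lists, enzymes that write or remove acyl groups on histones were marked at about the rate of all genes, but the single lists differed. Of 34 such genes 3 were marked (8.82%, 3.05 to 22.96), namely SIRT5, EP300 (3.68 and 4.34) and HDAC2 (3.54 and 4.42). With a window of 500 bp 1 of the 34 was marked. At EP300 both peaks ended before the gene start, with summits at −1047 and −1224 bp from it. At HDAC2 the strongest gene-end peaks of the 2 lists did not overlap, although the gene held 1 region with peaks of both lists. The strongest peak of replicate 1 lay at chr6:113970169-113970596, inside the gene, and that of replicate 2 at chr6:113971080-113971421, over its start. HDAC1 had a gene-end peak of 3.08 in replicate 2 alone, and SIRT1 one of 3.80 in replicate 2 alone. HDAC3, SIRT3, KAT5, AARS1, AARS2 and ACSS2 had none in either list. AARS1 and AARS2 are the alanyl-tRNA synthetases that have been described as lactyltransferases. In replicate 2 alone 12 of the 34 had a gene-end peak (35.3%), above the 19.5% of all genes. In replicate 1 alone 3 did (8.82%), below the 13.5% of all genes, so replicate 1 set the count for this list.

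Lists of the cell cycle and of chromosomes varied in their shares. Of 36 genes of the anaphase promoting complex and cyclins 10 were marked (27.8%, 15.8 to 44.0), including CKS2 (5.19 and 4.85) and CCNA2, cyclin A2 (4.68 and 4.79). Of 68 kinetochore, checkpoint and cohesin genes 17 were marked (25%, 16.2 to 36.4), including SMC3, a core cohesin subunit (5.37 and 4.38). DNA repair genes had 21 of 101 (20.8%, 14.02 to 29.7), led by RECQL, a DNA helicase (5.37 and 5.84), and DNA replication genes had 9 of 57 (15.8%). Replication-dependent histone genes, which are expressed in S phase, had 2 of 69 (2.90%, 0.799 to 9.97), H2AC15 (4.91 and 3.45) and its neighbour H2BC15 (4.91 and 2.93), whose value in replicate 1 came from the same peak.

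Of the 3 lists of liver genes, 2 had smaller marked shares than all genes and the transcription factors had a larger one. Of 57 secreted liver proteins 3 were marked (5.26%, 1.81 to 14.4), the coagulation factors F5 (3.80 and 4.74) and F10 (3.42 and 3.19) and the acute phase protein ORM1 (4.24 and 3.42). ALB, AFP, APOA1, TTR and SERPINA1, which hepatocytes or HepG2 cells secrete, had no gene-end peak in either list. Of 100 cytochrome P450 and phase II genes 8 were marked (8%, 4.11 to 14.998). Liver transcription factors had 5 of 35 (14.3%, 6.26 to 29.4), namely PPARG (4.67 and 5.89), HNF4G (3.67 and 4.27), HNF4A (3.55 and 3.34), HHEX (3.50 and 3.10) and FOXA1 (3.31 and 2.77). The HNF4A values are those at its 3′ end, and the region at its 5′ end had 2.99 and 3.32. At HHEX the peaks of the 2 lists did not overlap.

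Lists of genes typical of other tissues, though some keratins are also made in hepatocytes, had small shares. Of 42 blood and immune markers 1 was marked, CD8A at 4.84 and 5.24, and of 38 neuron and muscle genes none was. Of 149 keratin genes none was marked (Wilson upper bound 2.51%), although 2 had a gene-end peak in replicate 1. Of 416 olfactory and taste receptor genes 1 was marked, OR2T1, whose region held peaks in all 6 libraries. Of 39 HOX genes, which pattern the body axis, 1 was marked, HOXD1 at 2.90 and 3.55, where the peaks of the 2 lists did not overlap. A peak list does not measure expression, and several defining liver genes were unmarked too, so these counts do not check the tissue label.

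**Figure D5:**
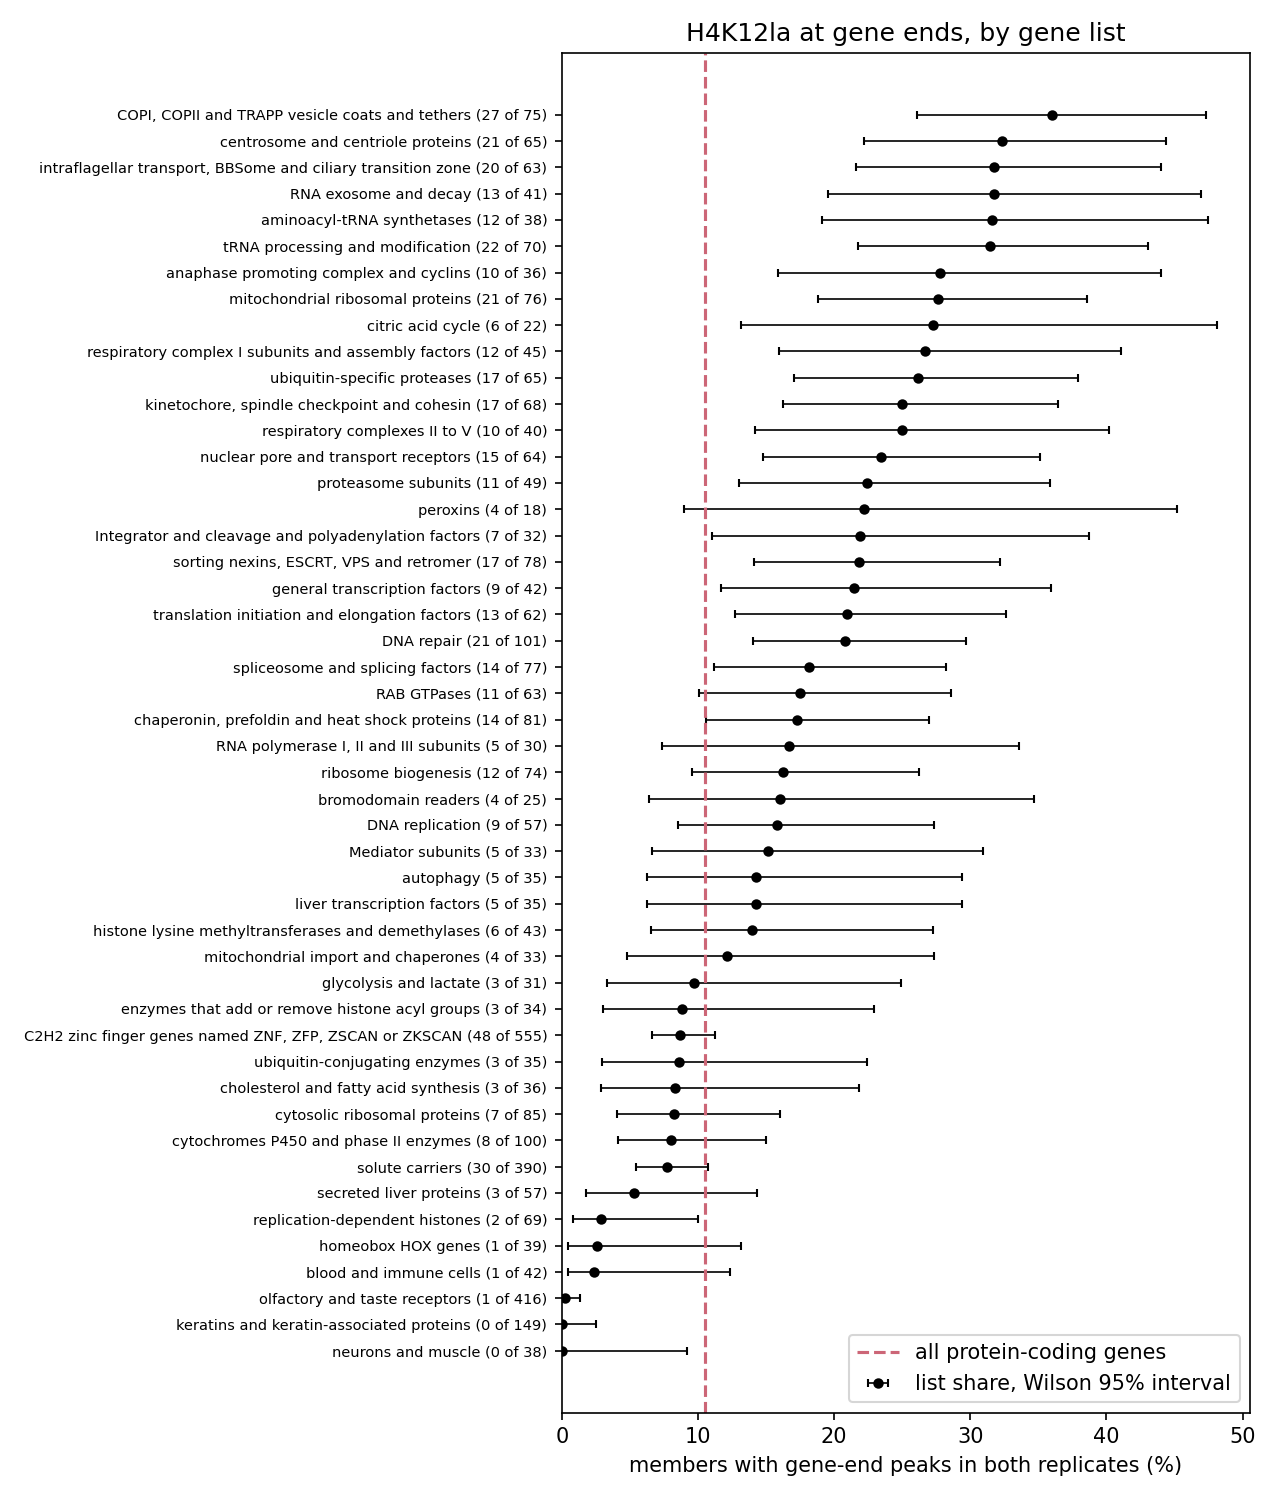
Percent of the members of each of the 48 gene lists with H4K12la gene-end peaks in both replicates (horizontal axis), with Wilson 95% intervals and the counts beside each name. The dashed line marks the 10.5% of all protein-coding genes, and the lists run from vesicle coats at 36% down to keratins and to neurons and muscle at 0.

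Few genes held more than 1 region. Counting regions of both replicates in a gene body and 1 kb around it, 2731 genes (13.7%) held at least 1 and 232 (1.17%) held more than 1. Of the 232, 195 held 2 regions, 27 held 3, 8 held 4, RPTOR held 5 and TTC34 held 9. Genes with several regions were long, and counting over the whole gene body gives a long gene more room for regions. The median length was 48.3 kb for genes with 1 region, 110.1 kb with 2 and 312.6 kb with 3 or more. Of the 232 genes 150 (64.7%) were also marked at an end, compared with 1888 of the 2499 genes with 1 region (75.6%). Counted in a single list, genes with more than 1 peak numbered 492 in replicate 1 and 916 in replicate 2.

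HNF4A, the nuclear receptor that directs hepatocyte identity, was the shortest of the 10 genes with the most regions, at 78.9 kb (chr20:44355699-44434596). Its regions were modest in fold, from 2.99 to 4.01 in replicate 1 and from 3.32 to 3.85 in replicate 2, and none had peaks in all 6 libraries. The region chr20:44355400-44356344 lay at the 5′ end of the gene, centred 0.173 kb past a tabulated start. A second, chr20:44370553-44371100, was 15.1 kb past that start. The next, chr20:44404676-44405120, was centred 3.66 kb downstream of another tabulated start, and the last, chr20:44433810-44434648, covered the 3′ end. No HDAC1 or ENO1 peak overlapped 2 of the 4.

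RPTOR, a subunit of the nutrient-sensing complex mTORC1, held 5 regions over 421.5 kb. The region just past its start, chr17:80544871-80545458, had a fold of 4.60 and 3.60. A region at chr17:80744000-80744946 had 9.18 and 10.2 and held peaks in all 6 libraries, and the other 3 lay between 3.31 and 4.00 in the 2 lists. GAS2, a cytoskeletal protein, held 4 regions with a fold of 4.21 to 6.65 in replicate 1 and 3.55 to 7.69 in replicate 2. The strongest in replicate 1, chr11:22624768-22625904 (6.65 and 4.87), lay outside the gene body. It covered an end of FANCF, a DNA repair gene that was marked with the same values. PARN, a poly(A) ribonuclease, held 4, of which 1 lay at its start at 2.83 and 3.27. TTC34 held 9 regions, none at a gene end, with a fold of 2.25 to 5.65 in replicate 1 and 2.60 to 6.47 in replicate 2. All 9 held peaks in all 6 libraries. Its widest, chr1:2652188-2655976, was also the widest of all 3717 regions at 3789 bp.

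The strongest regions inside genes, away from their ends, were mostly common to all antibodies. Of the 10 with the highest lower fold, 9 held peaks in all 6 libraries. GPI held a region of 1438 bp at chr19:34391265-34392702, 9711 bp from the nearest gene end, with a fold of 13.05 and 12.95. Its gene-end peaks were far weaker, at 3.03 and 3.35. LRRC27 (14.03 and 14.4), SERINC2 (13.3 and 13.7) and CLPTM1L (12.7 and 13.9) had similar values. TJP1, a scaffold of tight junctions, was the exception, with a fold of 11.6 and 11.7 at chr15:29949452-29950131 and without peaks in all 6 libraries. The part of a shared signal in these folds was not tested.

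Far from genes, regions crowded into a few stretches. The densest 1 Mb bin was chr10:40000001-41000000, with 34 regions, none at a gene end, 25 of them with peaks in all 6 libraries. Their median fold was 9.60 in replicate 1 and 10.2 in replicate 2. The bin chr4:49000001-50000000 held 24 regions and chr5:49000001-50000000 held 18. All 3 stretches lie at or next to centromeres, which are rich in repeats. The 12 densest bins held 188 of the 3561 regions (5.28%), 12 of them at gene ends. A pair of bins in this set differed from the rest. The bin chr20:35000001-36000000 held 11 regions, 8 at gene ends, and none with peaks in all 6 libraries. The bin chr16:14000001-15000000, which holds PARN, also held 11, 2 at gene ends and none with peaks in all 6 libraries.

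Sequences outside the 24 chromosomes held 156 of the 3717 regions (4.197%). Of these, 152 lay on 56 unplaced or unlocalized sequences, with a median fold of 4.94 and 5.29 and peaks in all 6 libraries at 114. The mitochondrial genome, which carries no histones, held 4 regions with a median fold of 1.83 and 1.89, all 4 with peaks in all 6 libraries.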

How the data were processed

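The 2 H4K12la peak lists hold fold enrichment, a ratio, and −log10 q per peak as deposited by the authors. Per the submitters' processing notes, FastQC, Bowtie2, MACS2 and deepTools were used with build hg38; for settings and versions the sources used here give nothing. Peaks were listed per sample. The authors' fold and −log10 q served only to describe and order peaks within a list.

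Peaks overlapping by at least 1 bp were merged, and distances were taken to ends of 19866 protein-coding genes of RefSeq GRCh38.p14. Promoters came from the RefSeq table, which matched 15843 of these genes (79.7%). It held no start on chromosome 8, so the results on starts, divergent pairs, CpG content and motifs leave out its 707 genes. No test was run, since there is 1 group of 2 libraries. Wilson intervals are at 95%. Python 3.11.15, pandas 2.3.3 and SciPy 1.17.1 were used, and the overlap and distance code was tested on simulated peaks.

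Members and gene lists were chosen with earlier results of these data known. Named genes were the 20 with the highest lower fold, up to 4 marked members per list, the 10 with most regions, the strongest or widest regions and a fixed set of acylation and lactate genes. Genes named outside that rule, promoters printed, and the chromosome, divergent-pair and CpG splits were chosen after seeing the data. Alternatives were a 50% reciprocal overlap, −log10 q of at least 5, equal list lengths, windows of 500 and 5000 bp, joining of nearby peaks and each list alone.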

Additional observations from a re-analysis of the deposited data

How the results depend on the processing

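Requiring −log10 q of at least 5 lowered the regions of both replicates from 3717 to 2284 and the marked genes from 2077 to 1214, and moved the median region width from 806 to 861.5 bp. Joining peaks up to 500 bp apart raised the share of regions with several peaks from 1.02% to 2.79%. The gene-end share of 47.3% was 45.02% at 500 bp, 52.9% at 5000 bp and 53.6% without regions peaked in all 6 libraries, and 41.0% to 43.8% in a single list. The share beyond 50 kb, 16.6%, was 21.01% at the stricter q, 8.91% without regions peaked in all 6 libraries, and 12.9% to 17.5% in a single list. Marked genes numbered 2675 to 3877 in a single list, and genes with more than 1 region 492 to 916. The ETS-type letters were in 27.9% of the 1222 promoters overlapped directly in both lists. Of the 48 gene lists, 38 stayed on the same side of the share of all genes under the 500 bp window, the stricter q and each list alone. The 10 that changed side were mitochondrial import, Mediator and DNA replication (at the stricter q), glycolysis, liver transcription factors and histone methylation enzymes (at 500 bp), and acyl enzymes, cytosolic ribosomal proteins, ubiquitin-conjugating enzymes and lipid synthesis (in a single list). The cause was not tested. No paired analysis was possible because the results come from no test. Depth is unknown, so a missing peak sets no limit on the mark.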

Other observations

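Genes that do not code for proteins had smaller marked shares. Of 18010 lncRNA genes, 689 (3.83%) had peaks of both lists within 1 kb of an end, and for 439 of these (63.7%) the region also lay at a protein-coding gene end. Examples of such neighbours were MMADHC-DT, with a fold of 6.48 and 6.92, and ERRFI1-DT, with 6.95 and 6.30, each starting beside the gene it is named for. Of 429 tRNA genes 12 were marked (2.80%, 1.61 to 4.83). Of 149 snRNA genes 10 were (6.71%, 3.69 to 11.9), of which 1 shared its region with a protein-coding end. The snRNA interval includes the 10.5% of protein-coding genes. The strongest lncRNA region, at LINC01986 near the end of chromosome 3, had a fold of 17.1 and 18.5.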
